A study of Homo sapiens with 24 samples.

Results

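The genes described here encode the claudins and scaffolds of tight junctions, the belts that seal epithelial cells to each other. The list holds CLDN1, CLDN4, CLDN7 and CLDN12 (claudins), OCLN (occludin), F11R (JAM-A), TJP1 and TJP3 (ZO-1 and ZO-3) and CGN (cingulin). Their members are all probe sets of the array whose annotation gives 1 of these symbols and no other. This gave 16 probe sets of 8 genes, out of 54613 probe sets and 19775 genes with a symbol of their own. No probe set used here carries F11R alone, and the 1 probe set that carries CLDN12 together with a second gene was left out. The transcripts were measured in RWPE1, a non-tumorigenic line of immortalized epithelium from human prostate. For 6, 24 or 48 h its cells were given either 1,25(OH)2D (100 nM), the active hormone made from vitamin D, or ethanol at 0.1% as vehicle. Each of the 6 groups had 4 arrays, 24 in all, and the medium of the 48 h cultures was changed at 24 h. All were grown in the same serum-free keratinocyte medium. The labels call the 4 samples of a group biological replicates, and all are cultures of this single line.

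A tight junction is built from strands of claudins in the plasma membrane of neighbouring cells. The mix of claudins sets which ions and solutes pass between the cells. Occludin and JAM-A lie in the same contacts. ZO-1 and ZO-3 bind the inner ends of the membrane proteins, and with cingulin they tie the junction to the actin cytoskeleton. 1,25(OH)2D acts through the vitamin D receptor (VDR), a nuclear receptor that binds DNA with its partner RXR, most often at a pair of half-sites in direct repeat.

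The 250 bases before the RefSeq start sites (GRCh38.p14) of CLDN1, CLDN7 and CGN are shown because these 3 genes have the transcripts that passed a treatment test. CLDN1 lies on chromosome 3 (190305707 to 190322446), CLDN7 on chromosome 17 (7259903 to 7263213) and CGN on chromosome 1 (151510170 to 151538692). Each sequence runs 5′ to 3′ on the strand of the gene, and capitals mark matches to the motifs named next. CLDN7 has 2 start sites in this table. The start used for CGN lies inside the span given for the gene.
CLDN1, chr3:190322447-190322696, minus strand: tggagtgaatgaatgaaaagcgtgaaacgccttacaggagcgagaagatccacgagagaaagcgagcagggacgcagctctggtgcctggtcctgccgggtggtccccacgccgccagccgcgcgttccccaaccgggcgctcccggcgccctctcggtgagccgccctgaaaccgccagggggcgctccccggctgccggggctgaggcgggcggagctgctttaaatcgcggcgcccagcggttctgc
CLDN7, chr17:7263214-7263463, minus strand: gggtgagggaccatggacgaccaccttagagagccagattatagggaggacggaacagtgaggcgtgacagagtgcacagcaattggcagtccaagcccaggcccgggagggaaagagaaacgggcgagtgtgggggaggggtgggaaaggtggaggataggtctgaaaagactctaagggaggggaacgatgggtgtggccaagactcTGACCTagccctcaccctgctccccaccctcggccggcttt
CLDN7, chr17:7262479-7262728, minus strand: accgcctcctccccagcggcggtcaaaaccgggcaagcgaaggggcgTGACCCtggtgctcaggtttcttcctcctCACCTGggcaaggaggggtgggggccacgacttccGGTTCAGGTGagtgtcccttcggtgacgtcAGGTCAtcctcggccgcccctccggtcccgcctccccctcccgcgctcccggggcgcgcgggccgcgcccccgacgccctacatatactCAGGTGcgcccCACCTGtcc
CGN, chr1:151511137-151511386, plus strand: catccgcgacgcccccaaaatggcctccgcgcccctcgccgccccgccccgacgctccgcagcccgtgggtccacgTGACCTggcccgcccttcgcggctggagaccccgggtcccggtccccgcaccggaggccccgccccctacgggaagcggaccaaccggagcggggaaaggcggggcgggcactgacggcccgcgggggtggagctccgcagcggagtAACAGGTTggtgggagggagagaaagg

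Motifs were searched on both strands. A VDR half-site was spelled AGGTCA or, as variants, AGTTCA as well as GGGTCA and finally GGTTCA. Of all 35116 windows of this length 33.8% hold 1 or more of them. The E-box CAGGTG, a site of the SNAI and ZEB repressors, occurs in 17.5%, the AP-1 site TGANTCA in 6.57% and the grainyhead-like site AACCNGTT in 1.49%. A direct repeat of 2 half-sites with 3 bases between them occurs in 0.0655% of windows and in none of these 4. The CLDN1 window holds none of the motifs. The first CLDN7 window holds 1 half-site at position -41, counted from the start site. The second holds 3 half-sites (-203, -139 and -109) and 4 E-boxes (-174, -135, -20 and -9), and the half-site at -139 overlaps the E-box at -135. The CGN window holds 1 half-site at -174 and 1 grainyhead-like site at -27. A match is a string of letters in this window and says nothing about binding.

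The deposited values are log2 intensities after gcRMA normalization, so a difference of 1 is a doubling of signal, and levels are not compared between probe sets. A probe set was tested where its value reached 3.2 on 3 of the 4 arrays of at least 1 group, which kept 26036 of 54613. Of the 16 members 11 passed. The 5 others were CLDN4 1569421_at, TJP3 213412_at and 3 of the 4 OCLN probe sets (209925_at, 235937_at and 231022_at), with group means from 2.19 to 2.77. The 11 tested probe sets stand for all 8 genes, but CGN 223232_s_at reached 3.2 in 1 group alone (1,25(OH)2D at 6 h), so it had to be high there and its values are given as a description. A change was called at a Benjamini-Hochberg adjusted p under 0.05 over all tested probe sets (limma). In bulk samples fewer cells with a transcript and less transcript per cell cannot be told apart.

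CYP24A1, which encodes the enzyme that degrades 1,25(OH)2D, rose at all 3 times, by 1090-fold first (6 h), then 68.4-fold (24 h) and finally 63.7-fold (48 h), and of these calls the one at 24 h was lost with the replicate number as a block (adjusted p = 0.181). The basal keratins KRT5 (15.24 to 15.44) and KRT14 (16.04 to 16.21) and the simple epithelial keratins KRT8 (12.26 to 13.60) and KRT18 (14.00 to 14.76) were bright on all 24 arrays. Of the luminal secretory genes, KLK2 stayed at 2.69 to 2.77 and KLK3 at 3.42 to 5.20. Leukocyte and endothelial markers (3 of each) lay between 2.23 and 4.45. Among 5 fibroblast markers COL1A1 reached 9.45 to 10.72, and the other 4 lay between 2.24 and 3.52. The first principal component of the arrays' deviations from their group means held 71.9% of the variance within groups, and the next one 6.82%. On it 4 arrays stood apart with scores above 0.3 in size, namely replicate 1 of vehicle at 6 h, replicate 1 of vehicle at 24 h, and replicates 1 and 4 with 1,25(OH)2D at 24 h. The mean SD within a group ranged from 0.119 (vehicle, 48 h) to 0.398 (1,25(OH)2D, 24 h). The deviations of most members followed this component over the 24 arrays, with r up to 0.966 (CLDN12) in one direction and -0.910 (TJP3) in the other, while those of CGN (-0.242 and 0.323) and CLDN4 (-0.383) did so weakly, and its part in the results was not tested. Results are therefore also given without these 4 arrays, a choice made after the data were seen. The 4 were picked for lying far from their group means, so leaving them out narrows the spread. P-values without them are thus no independent test.

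1,25(OH)2D changed 3 of the 11 tested probe sets at 6 h, none of them at 24 h, and again 3 at 48 h. Of all tested probe sets 2.69%, 0.353% and 9.61% were called at these times. By gene, each by its brightest probe set, 2, 0 and 2 of the 8 were called, where 3.4%, 0.516% and 12.0% of all genes were. Both CLDN1 probe sets count there as the same gene, and with so few genes nothing is read from these counts. At 6 h CGN rose and both CLDN1 probe sets fell. At 48 h CLDN7 rose and both CLDN1 probe sets fell. The median log2 difference of the 11 was 0.268, -0.359 and -0.0945 in the order of the times, and over all tested probe sets it was -0.0306, 0.0164 and -0.00893. At 24 h 4 of the 11 had an unadjusted p under 0.05, but no share over all probe sets at this threshold is given, so nothing is read from this count. SAM, the test named in the study's methods, was coded anew and run on the probe sets that passed the filter used here. These are thus not the study's own calls. It called 4, 2 and 4 of the 11, with 6.37%, 5.78% and 13.6% of all probe sets. Its calls at 6 h include CGN 223232_s_at, which the filter let in through the treated 6 h arrays alone, so that call is no test. The 2 that SAM called at 24 h were CLDN1 218182_s_at, which was lower, and CLDN7, which was higher. Without the 4 arrays, which leaves 3 vehicle and 2 treated arrays, limma called 3 at 24 h, both CLDN1 probe sets and CLDN7, where 21.1% of all probe sets were called.

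**Figure D1:**
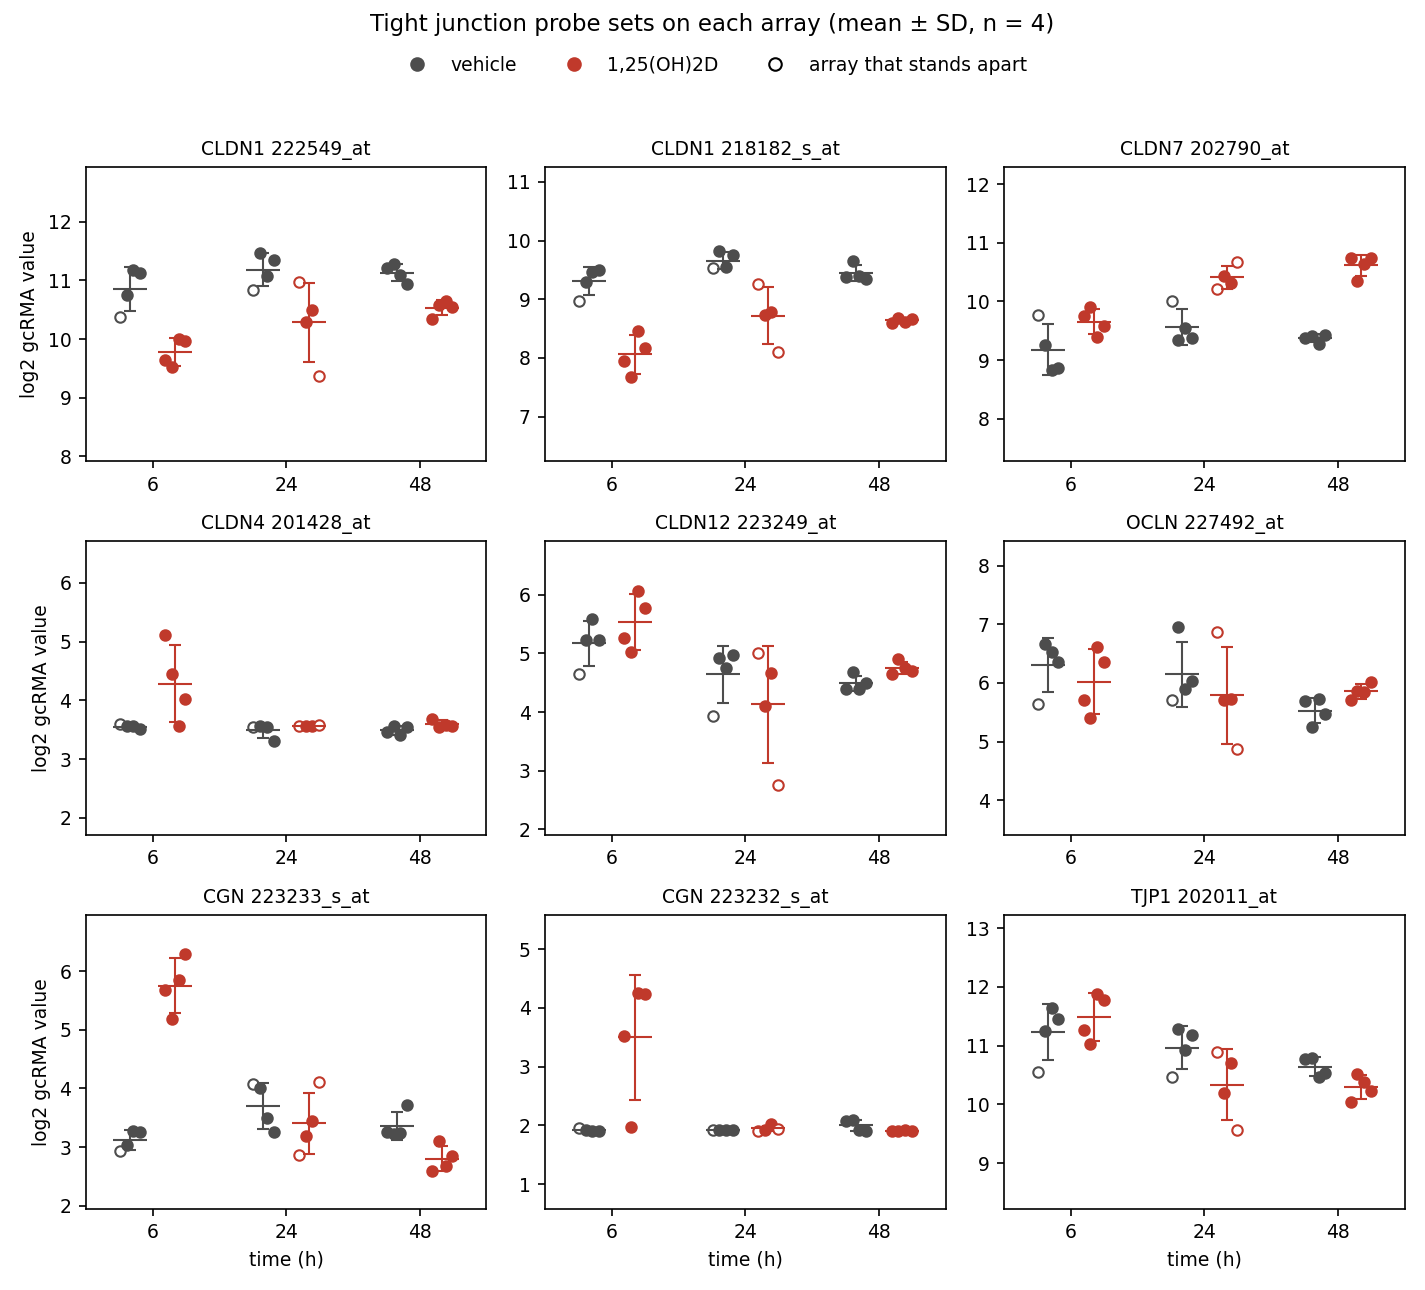
Log2 gcRMA values of 9 tight junction probe sets on each of the 24 arrays, by time (h), with vehicle in grey and 1,25(OH)2D in red. Bars are the mean ± SD (n = 4), open circles are the 4 arrays that stand apart, and every panel spans the same range of log2 units. CLDN1 was lower with 1,25(OH)2D at 6 and 48 h, CLDN7 was higher at 48 h (means 10.62 and 9.37), and CGN was high at 6 h with 1,25(OH)2D (mean 5.75) and in no other group (means 2.81 to 3.71).

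CLDN1, a sealing claudin that epidermis and other stratified epithelia need for their barrier, was lower with 1,25(OH)2D at both ends of the time course. On CLDN1 222549_at, the brighter of its probe sets, the vehicle arrays read 10.38, 10.75, 11.17 and 11.12 at 6 h and the 1,25(OH)2D arrays 9.64, 9.52, 9.99 and 9.96. At 24 h vehicle gave 10.83, 11.47, 11.08 and 11.35 and 1,25(OH)2D gave 10.98, 10.29, 10.50 and 9.38. At 48 h they gave 11.20, 11.28, 11.10 and 10.94 against 10.35, 10.59, 10.65 and 10.54. Every treated array lay below every vehicle array at 6 and 48 h, while at 24 h the treated arrays spread from the lowest of the 24 values to within the vehicle range. The log2 difference was -1.07 ± 0.200 (SE) at 6 h, which is 2.11-fold lower (adjusted p = 0.0291). It was -0.89 ± 0.330 at 24 h (adjusted p = 0.512) and -0.60 ± 0.0918 at 48 h, 1.52-fold lower (adjusted p = 0.00614).

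The second probe set, CLDN1 218182_s_at, followed the first over the 24 arrays (r = 0.954). Its vehicle arrays read 8.97, 9.29, 9.46 and 9.49 at 6 h, followed by 9.53, 9.82, 9.54 and 9.76 (24 h) and 9.39, 9.65, 9.40 and 9.34 (48 h). The 1,25(OH)2D arrays read 7.95, 7.67, 8.46 and 8.17, then 9.26, 8.74, 8.79 and 8.09, then 8.59, 8.68, 8.61 and 8.67. At each time all 4 treated arrays lay below all 4 vehicle arrays. The transcript was 2.36-fold lower at 6 h (-1.24 ± 0.188, adjusted p = 0.0106) and 1.75-fold lower at 48 h (-0.81 ± 0.0726, adjusted p = 0.000496). At 24 h it was 1.92-fold lower without passing the test (-0.94 ± 0.232, adjusted p = 0.244).

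The size of the CLDN1 difference was not shown to change with time. Between 6 and 48 h it differed by 0.47 on the log2 scale for 222549_at (95% CI -0.24 to 1.19, adjusted p = 0.906) and by 0.44 for 218182_s_at (95% CI -0.11 to 0.99, adjusted p = 0.755). Deviations of both probe sets followed the first component (r = 0.937 and 0.911). Without the 4 arrays the 24 h differences were -0.90 ± 0.142 (adjusted p = 0.0214) and -0.94 ± 0.103 (adjusted p = 0.0140), nearly the values with all arrays. These p-values rest on a spread narrowed by the choice of arrays, so they do not replace the 24 h test that failed. The 6 h call of 222549_at was lost (adjusted p = 0.0702 to 0.101) when any of 6 arrays was left out, namely vehicle replicates 2, 3 and 4 and 1,25(OH)2D replicates 1, 2 and 4, and also with no filter on low values (adjusted p = 0.0732). The 6 h call of 218182_s_at held whichever array was left out (highest adjusted p = 0.0449).

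CLDN7, a claudin of simple epithelia that binds EPCAM and lies along the lateral membrane as well as in the junction, was higher with 1,25(OH)2D at 48 h. On its probe set 202790_at vehicle read 9.76, 9.25, 8.83 and 8.87 at 6 h and 1,25(OH)2D 9.75, 9.90, 9.40 and 9.57. The readings at 24 h were 10.005, 9.35, 9.55 and 9.37 in vehicle and 10.21, 10.44, 10.32 and 10.68 with 1,25(OH)2D. Vehicle gave 9.38, 9.41, 9.28 and 9.43 at 48 h, and 1,25(OH)2D gave 10.73, 10.35, 10.64 and 10.73. The groups overlapped at 6 h through vehicle replicate 1, and at 24 and 48 h all treated arrays lay above all vehicle arrays. The transcript rose 2.36-fold at 48 h (1.24 ± 0.0906, adjusted p = 0.000159). It was 1.39-fold higher at 6 h (0.48 ± 0.219, adjusted p = 0.586) and 1.79-fold higher at 24 h (0.84 ± 0.172, adjusted p = 0.15), neither of which passed.

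The CLDN7 difference was larger at 48 h than at 6 h by 0.76 ± 0.253 on the log2 scale, which did not pass the test (95% CI 0.24 to 1.29, adjusted p = 0.15). Its deviations ran against the first component (r = -0.842), opposite in sign to those of CLDN1. Without the 4 arrays the difference was 0.67 ± 0.157 at 6 h (adjusted p = 0.0890) and 0.96 ± 0.0919 at 24 h (adjusted p = 0.0130), with the same limit on these p-values as for CLDN1. The 48 h call held under every alternative tried, with differences from 1.2 to 1.33.

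CLDN4 and CLDN12 did not pass the treatment test at any time. CLDN4, a claudin that lowers the passage of sodium ions, lies on chromosome 7 (73830996 to 73832690). On 201428_at it read 5.11, 4.44 and 4.02 on 1,25(OH)2D replicates 1, 2 and 4 at 6 h, where replicate 3 read 3.56, and 3.30 to 3.69 on all arrays of the other 5 groups. The difference at 6 h was 0.73 ± 0.292 (adjusted p = 0.445), and later it was 0.08 (24 h) and 0.10 (48 h). A fit of all 24 arrays, which pools the spread over the groups, called it at 6 h (adjusted p = 0.0290). CLDN12, which lacks the PDZ-binding tail of most claudins, lies on the same chromosome (90403461 to 90415954). With 1,25(OH)2D its arrays read 5.26, 5.03, 6.06 and 5.78 at 6 h, followed by 5.0, 4.10, 4.67 and 2.75 (24 h) and 4.65, 4.90, 4.74 and 4.69 (48 h). In vehicle they read 4.65, 5.23, 5.58 and 5.23, then 3.93, 4.93, 4.75 and 4.96, then 4.40, 4.67, 4.39 and 4.49. The lowest reading, 2.75, belongs to replicate 4 at 24 h, which had the lowest score on the first component (-0.544), and CLDN12 had the highest r with that component of all members (0.966). The differences were 0.36 (adjusted p = 1.0), -0.51 (adjusted p = 0.609) and 0.26 (adjusted p = 0.0963) at 6, 24 and 48 h. At 48 h it passed without vehicle replicate 2 (0.32, adjusted p = 0.0488) or after centring on the median (0.29, adjusted p = 0.0361).

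OCLN, which encodes the membrane protein occludin, lies on chromosome 5 (69492547 to 69558104), and it passed no treatment test. On 227492_at vehicle read 5.63 to 6.67 at 6 h, 5.71 to 6.96 at 24 h and 5.25 to 5.72 at 48 h. With 1,25(OH)2D it read 5.41 to 6.62, 4.87 to 6.87 and 5.71 to 6.02. The groups overlapped at all 3 times. The difference was -0.27 ± 0.319 at 6 h (adjusted p = 1.0), -0.36 ± 0.447 at 24 h (adjusted p = 0.658) and 0.33 ± 0.115 at 48 h (adjusted p = 0.131). Its deviations followed the first component with r = 0.869.

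CGN, which encodes the scaffold cingulin, rose early and briefly. On 223233_s_at the vehicle arrays read 2.94, 3.04, 3.28 and 3.26 at 6 h, and the 1,25(OH)2D arrays read 5.68, 5.18, 5.86 and 6.30. Vehicle then gave 4.07, 4.00, 3.49 and 3.26 at 24 h and 3.27, 3.22, 3.24 and 3.72 at 48 h. With 1,25(OH)2D it gave 2.87, 3.19, 3.45 and 4.11 at 24 h and 2.6, 3.10, 2.68 and 2.84 at 48 h. All treated arrays lay above the vehicle arrays at 6 h, the groups overlapped at 24 h, and at 48 h the treated arrays lay below vehicle. The transcript was higher with 1,25(OH)2D at 6 h by 2.62 ± 0.222 on the log2 scale (adjusted p = 0.000502). No fold is given, since the vehicle mean at 6 h (3.13) lay under the filter of 3.2. The difference was -0.30 ± 0.298 at 24 h (adjusted p = 0.612) and -0.55 ± 0.146 at 48 h (adjusted p = 0.0539).

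The effect on CGN differed between times, by -2.92 ± 0.346 from 6 to 24 h (adjusted p = 2.07e-05) and by -3.18 ± 0.346 from 6 to 48 h (adjusted p = 6.97e-06). Of all tested probe sets 2.11% and 2.79% differed in this way, and 0.0346% did from 24 to 48 h, where none of the 11 was called and none had an unadjusted p under 0.05. Since the pooled fit mixes groups of unequal spread, these tests were repeated on the arrays of the times compared, and CGN passed again (adjusted p = 0.000844 and 9.03e-06). The second probe set, 223232_s_at, read 3.52, 1.97, 4.26 and 4.23 with 1,25(OH)2D at 6 h and had means from 1.91 to 2.00 in the other 5 groups. Replicate 2 thus stayed at the level of the other groups. As the filter let this probe set in through those 6 h arrays alone, a comparison with them is no test, and it adds nothing to the result on 223233_s_at. The size of the 6 h difference on 223233_s_at rests on vehicle values at the low end of the signal. With 32 added on the linear scale this difference was 1.09 (adjusted p = 0.00582). At 48 h the lower CGN reading passed in 5 of 18 alternatives. Among them were leaving out 1,25(OH)2D replicate 2 (-0.65, adjusted p = 0.0250), centring (adjusted p = 0.0367), limma's trend and robust options (adjusted p = 0.0392) and SAM. It did not pass in 13, with adjusted p up to 0.357. All treated values at 48 h (2.60 to 3.10) lay under the filter of 3.2, so this difference lies at the low end of the signal. Deviations of the CGN probe sets followed the first component weakly (r = -0.242 and 0.323).

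TJP1, the ZO-1 scaffold on chromosome 15 (29699367 to 29969049), passed no treatment test. On 202011_at vehicle read 10.55, 11.26, 11.65 and 11.46 at 6 h, followed by 10.47, 11.28, 10.94 and 11.19 (24 h) and 10.78, 10.78, 10.47 and 10.54 (48 h). With 1,25(OH)2D it read 11.26, 11.04, 11.89 and 11.78, then 10.89, 10.19, 10.71 and 9.56, then 10.04, 10.51, 10.38 and 10.22. The groups overlapped at each time. The differences were 0.26 ± 0.279 (adjusted p = 1.0), -0.63 ± 0.318 (adjusted p = 0.601) and -0.35 ± 0.118 (adjusted p = 0.114). On 214168_s_at, which followed 202011_at with r = 0.965, they were 0.27, -0.76 and -0.35 (adjusted p = 1.0, 0.536 and 0.399). Both probe sets followed the first component (r = 0.945 and 0.863). Without the 4 arrays the 24 h differences were -0.68 (adjusted p = 0.0650) and -0.87 (adjusted p = 0.0569). TJP3, the ZO-3 scaffold on chromosome 19 (3708384 to 3750813), had group means from 3.84 to 3.99 on 35148_at, with differences of -0.08, 0.08 and 0.02. Its 24 h difference turned to -0.02 without 1,25(OH)2D replicate 4.

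**Figure D2:**
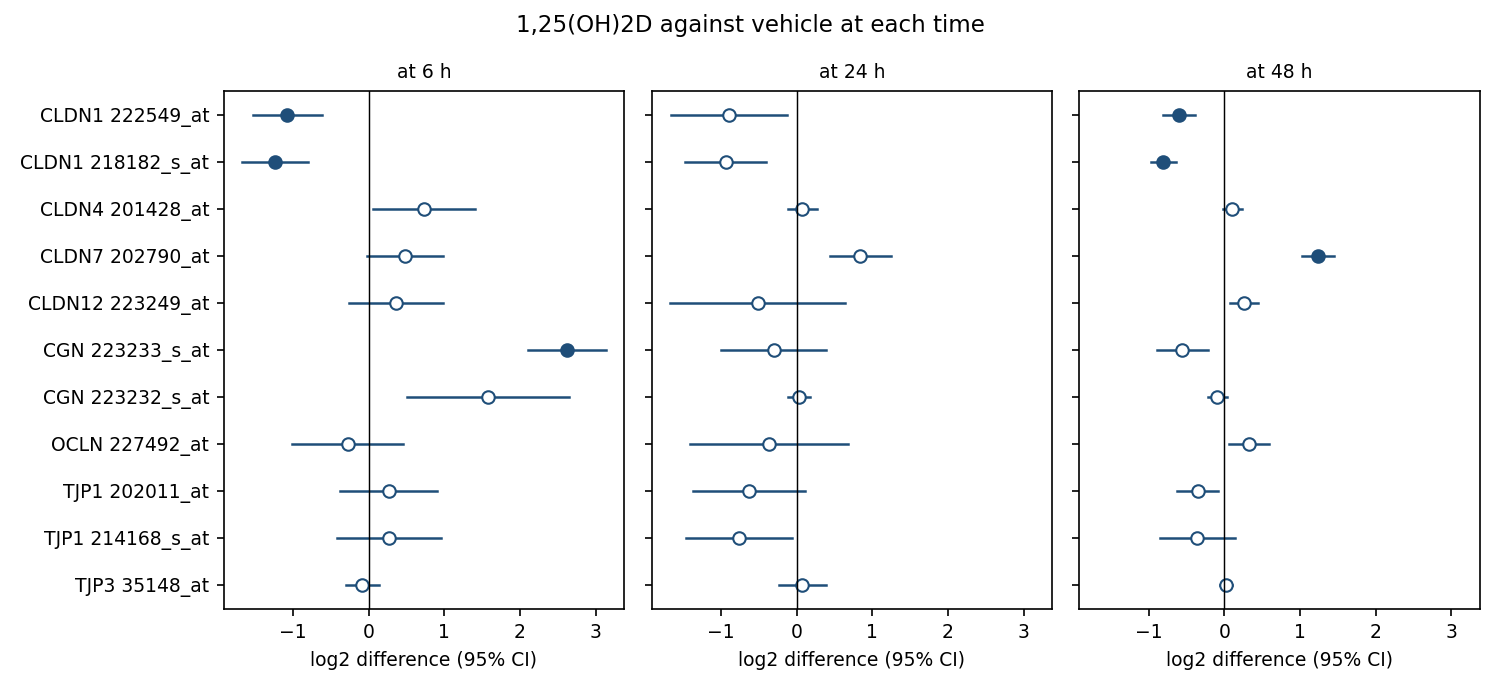
Log2 difference, 1,25(OH)2D minus vehicle, with its 95% confidence interval (limma, 4 arrays against 4) for the 11 tested probe sets at 6, 24 and 48 h. Filled circles passed the adjusted test, which were CLDN1 (both probe sets) at 6 and 48 h, CGN 223233_s_at at 6 h and CLDN7 at 48 h, and the intervals were widest at 24 h for CLDN12 (-1.67 to 0.65).

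Within vehicle, none of the 11 probe sets changed from 6 to 24 h, when 7.81% of all probe sets did, and none changed from 24 to 48 h, when 0.315% did. At an unadjusted p under 0.05 the counts were 2 and 0, with no share over all probe sets to set them against. CLDN7 was higher at 24 h than at 6 h in vehicle by 0.39 (adjusted p = 0.236), and it passed without vehicle replicate 1 at 6 h (0.58, adjusted p = 0.0259). With 1,25(OH)2D, 8 of the 11 were called from 6 to 24 h, against 16.7% of all probe sets, and 1 of the 8 is CGN 223232_s_at, which the filter let in through its high 6 h group. By gene, each by its brightest probe set, 5 of the 8 genes were called, against 19.4% of all genes. The number behind the 16.7% (4345) moved with single arrays, to 2173 and 2390 without 1,25(OH)2D replicates 3 and 4 at 6 h, to 2694 and 2527 without replicates 2 and 4 at 24 h, and to 10109 without replicate 1 at 24 h, whereas 7 to 9 members were called. CGN fell (-2.35, and -1.55 on 223232_s_at), TJP1 on both (-1.16 and -1.27), and CLDN12 (-1.40) and CLDN4 (-0.72) fell on 1 each, while CLDN7 rose by 0.75 and CLDN1 218182_s_at by 0.66. From 24 to 48 h none of the 11 changed with 1,25(OH)2D, where 1.91% of all probe sets did. An unadjusted p under 0.05 was found for 1 of the 11, again without a share over all probe sets.

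These changes with 1,25(OH)2D span groups that differ in spread and in position on the first component. On the 16 arrays of 6 and 24 h alone, 5 of the 8 calls remained, against 8.49% of all probe sets. These were CGN 223233_s_at (adjusted p = 8.04e-05), 223232_s_at with the limit just given (adjusted p = 0.0144), both of TJP1 (adjusted p = 0.0352 and 0.0218) and CLDN7 (adjusted p = 0.0359). CLDN12 (adjusted p = 0.0541), CLDN4 (adjusted p = 0.0682) and CLDN1 218182_s_at (adjusted p = 0.0815) did not pass there. Without the 4 arrays all 8 passed, and CLDN1 222549_at as well (0.62, adjusted p = 0.00979), where 25.3% of all probe sets were called. CLDN1 222549_at also passed without 1,25(OH)2D replicate 4 at 24 h (0.81, adjusted p = 0.00923), and CLDN1 218182_s_at was lost without replicate 2 of 1,25(OH)2D at 6 h (0.53, adjusted p = 0.0537) or at 24 h (0.65, adjusted p = 0.05). The change of CLDN4 was -0.44 without 1,25(OH)2D replicate 1 at 6 h. Centring each array on its median added 0.19 to every change with 1,25(OH)2D from 6 to 24 h, and CLDN4 then did not pass (-0.53, adjusted p = 0.118). The difference in treatment effect between 6 and 24 h, which compares the arms with each other, passed for CGN only among the 11. For TJP1 it was -0.89 and -1.03 (adjusted p = 0.343 and 0.305), for CLDN12 -0.87 (adjusted p = 0.499) and for CLDN4 -0.65 (adjusted p = 0.320). CLDN4 passed this test without 1,25(OH)2D replicate 3 at 6 h (-0.89, adjusted p = 0.0266).

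**Figure D3:**
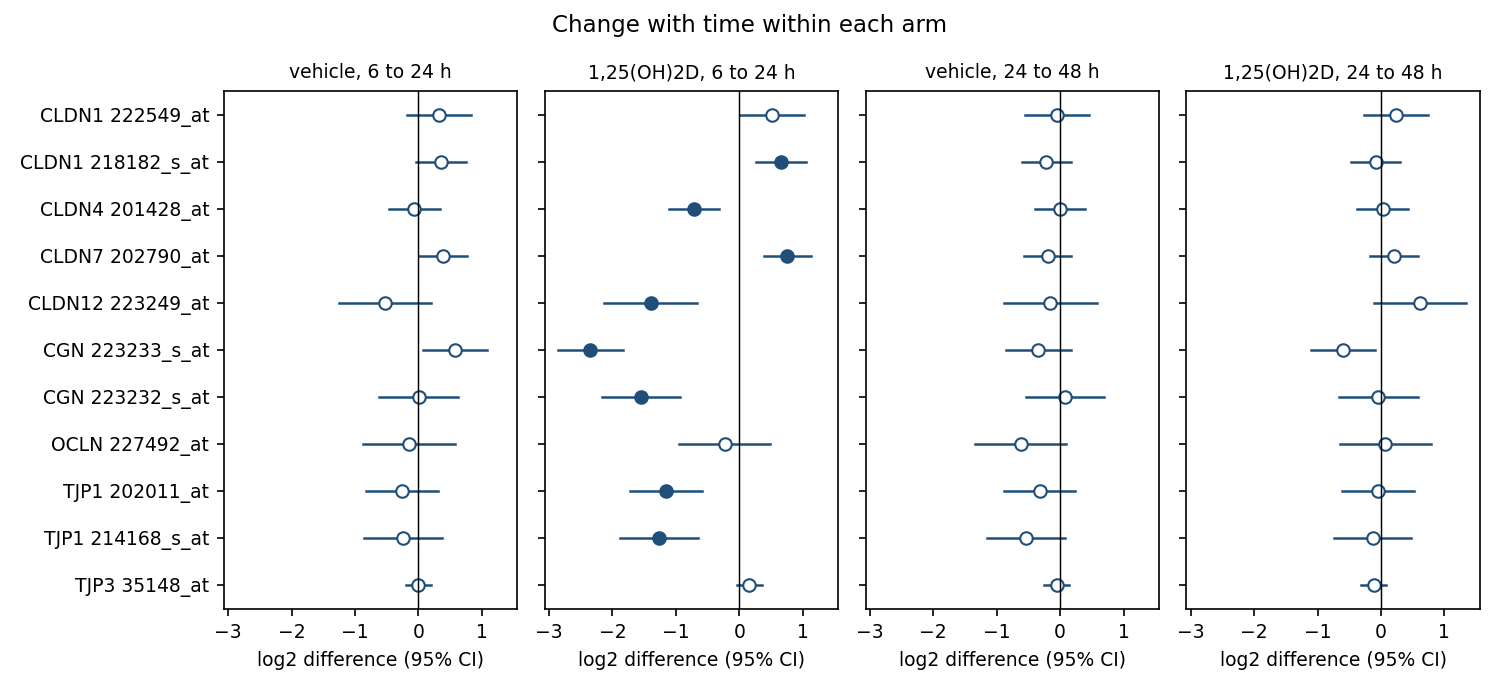
Log2 change with time, with its 95% confidence interval (limma, 24-array fit), for the 11 tested probe sets within vehicle and within 1,25(OH)2D. Filled circles passed the adjusted test, which 8 did with 1,25(OH)2D from 6 to 24 h and none did in the other 3 panels.

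The other genes of the pathway were taken from 5 lists, each gene by its brightest probe set, and 3.40%, 0.516% and 12.0% of all genes were called at 6, 24 and 48 h. Of 19 other claudins 16 had a probe set of their own and 4 passed the filter. At 6 h CLDN11, the claudin of myelin and of Sertoli cell junctions, read 2.87 to 3.01 in vehicle and 4.92 to 5.93 with 1,25(OH)2D. That was the single group in which it reached the filter, so its call there is no test, and no fold is given over vehicle values under the filter. CLDN23 rose 3.29-fold (1.72 ± 0.152, adjusted p = 0.000652), from 4.38 to 5.03 in vehicle to 6.31 to 6.69. The groups did not overlap for CLDN23 at 6 h. At 24 and 48 h the differences of CLDN11 and CLDN23 lay between -0.09 and 0.24. The effect on CLDN23 then differed from that at 6 h (adjusted p = 5.50e-05 for 24 h and 7.83e-05 for 48 h), as it did for 2.84% and 3.70% of all genes. CLDN5, the endothelial claudin, and CLDN19 passed at no time. With 32 added on the linear scale the 6 h difference of CLDN23 was 1.03, and it passed.

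None of 5 other membrane proteins of the junction that could be tested (CRB3, CXADR, LSR, MARVELD2 and MARVELD3) passed at any time, with medians of 0.126, -0.0632 and 0.039. Of 14 other scaffolds and polarity proteins 2 rose at 6 h, 0 passed at 24 h and 2 fell at 48 h. The angiomotin-like scaffolds AMOTL1 (1.2 ± 0.177, adjusted p = 0.00920) and AMOTL2 (0.49 ± 0.0915, adjusted p = 0.0298) rose at 6 h. The polarity scaffold PARD3 (-0.61 ± 0.121, adjusted p = 0.0183) and the atypical protein kinase C PRKCI (-0.41 ± 0.0913, adjusted p = 0.0292) fell at 48 h. The AMOTL2 call was lost without any one array but vehicle replicate 1 (adjusted p = 0.0588 to 0.108) and with centring (adjusted p = 0.0975). The PARD3 call was lost without vehicle replicate 1 or 2 (adjusted p = 0.0505 and 0.0577) and with no filter (adjusted p = 0.055). The PRKCI call was lost in 9 of 19 alternatives, with adjusted p up to 0.927 in the fit of all 24 arrays. Among them were the mean of its probe sets (-0.18, adjusted p = 0.38), no filter (adjusted p = 0.0744), the replicate block (adjusted p = 0.0841), and leaving out vehicle replicates 1, 2 or 4 or 1,25(OH)2D replicates 3 or 4 (adjusted p = 0.0548 to 0.0846). The median of the 14 was -0.0767, -0.142 and -0.0895.

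Of 5 claudin partners and membrane proteases, ST14 (matriptase, which cleaves EPCAM) rose at 48 h by 0.26 ± 0.0526 (adjusted p = 0.0206), and the other 4 passed at no time. The ST14 call was lost in the fit of all 24 arrays (adjusted p = 0.4), with the replicate block (adjusted p = 0.109), and without vehicle replicate 2 (adjusted p = 0.0537) or 1,25(OH)2D replicate 3 (adjusted p = 0.0662). ST14, PRSS8 and SPINT1 rose from 6 to 24 h in vehicle (0.49, 0.57 and 0.52) and with 1,25(OH)2D (0.81, 0.64 and 0.50), where 8.96% and 19.4% of all genes changed. Of 8 transcription factors that act on junction genes, GRHL2 rose at 6 h (0.79 ± 0.138, adjusted p = 0.0205) and GRHL1 at 48 h (0.90 ± 0.141, adjusted p = 0.00670). Both are grainyhead-like factors of epithelial genes. GRHL2 was not called without vehicle replicates 2 or 3 or 1,25(OH)2D replicates 1, 3 or 4 (adjusted p = 0.0591 to 0.0822). GRHL1 was higher at 6 h as well, by 0.81, without passing (adjusted p = 0.219). SNAI1 and ZEB1, repressors that bind E-boxes, did not reach the filter, nor did GRHL3 and ELF3.

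**Figure D4:**
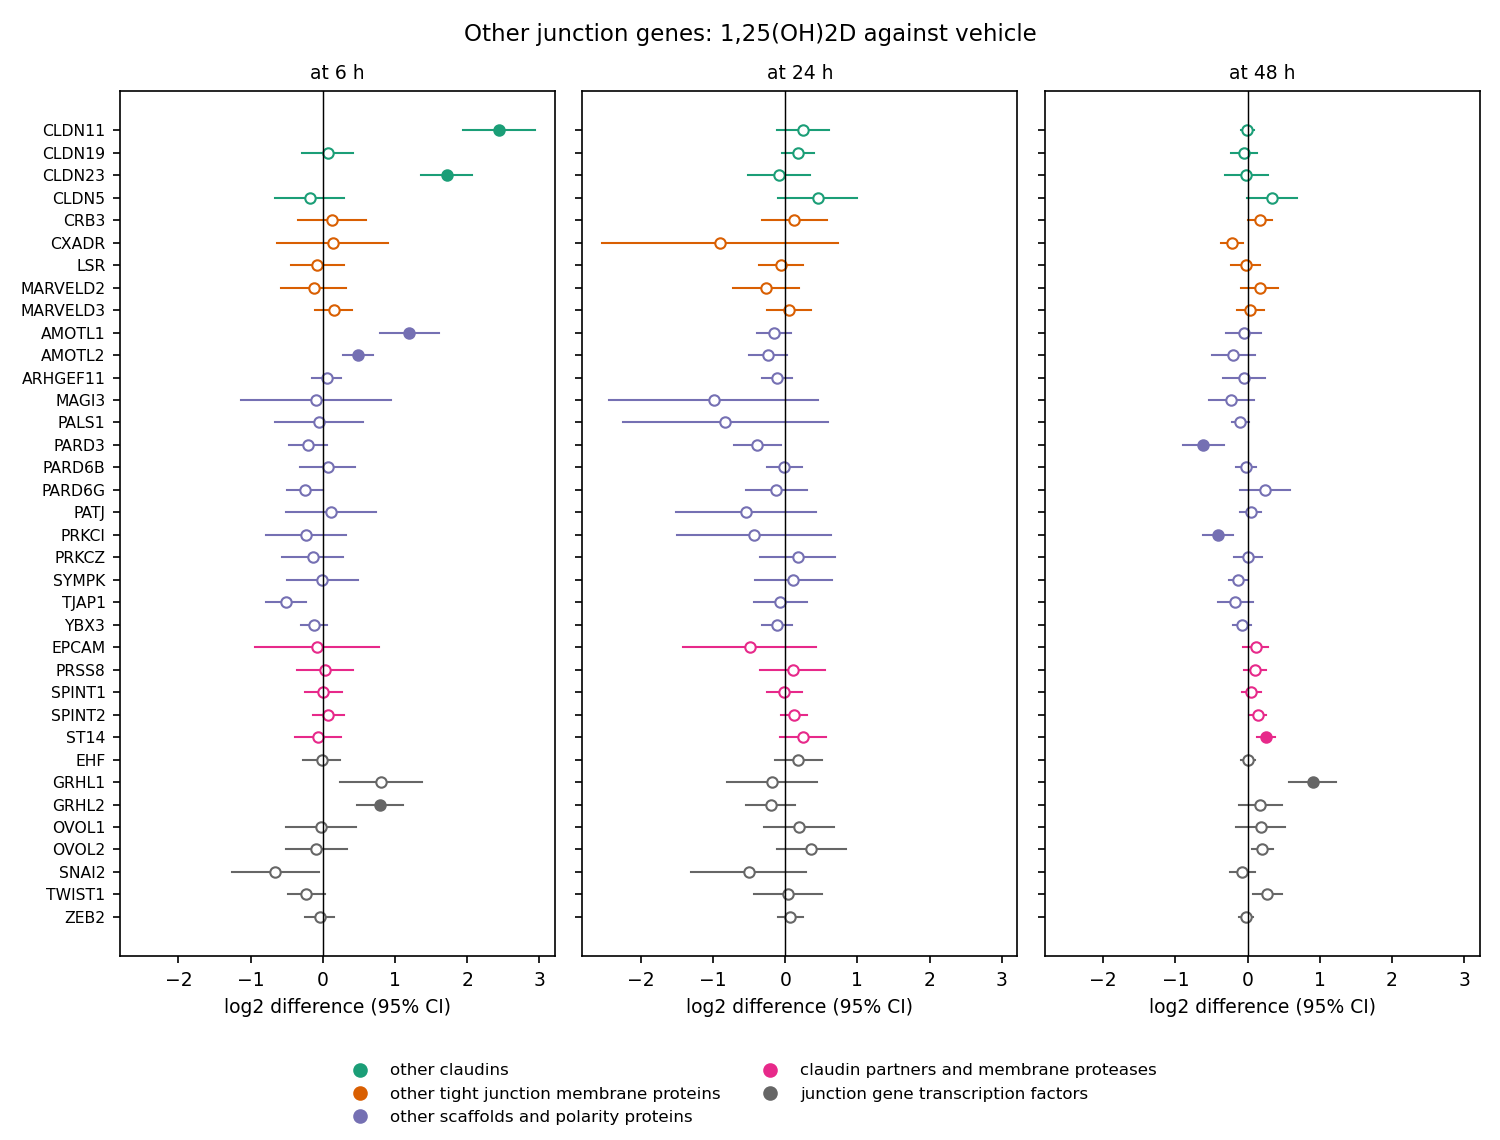
Log2 difference, 1,25(OH)2D minus vehicle, with its 95% confidence interval (limma) for the tested genes of 5 lists around the tight junction at 6, 24 and 48 h, coloured by list. Filled circles passed the adjusted test, which were CLDN11 (let in by the filter through its 6 h group with 1,25(OH)2D alone), CLDN23, AMOTL1, AMOTL2 and GRHL2 at 6 h, no gene at 24 h, and PARD3, PRKCI, ST14 and GRHL1 at 48 h.

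Of the 4 basal markers 2 were called at 48 h, where 12.0% of all genes were called, and nothing is read from this count. KRT15, a basal keratin, was 3.79-fold lower with 1,25(OH)2D at 48 h (-1.92 ± 0.125, adjusted p = 9.5e-05), with vehicle at 12.14 to 12.63 and 1,25(OH)2D at 10.35 to 10.66. It had risen in vehicle from 6 to 24 h by 1.37 (adjusted p = 0.00185). ITGB4, an integrin of the basal surface, was lower at 48 h by -0.37 (adjusted p = 0.0415), a call lost in 9 of 19 alternatives, namely with any array but 1,25(OH)2D replicate 2 left out (adjusted p = 0.0617 to 0.114), with no filter (adjusted p = 0.103) and with the mean of its probe sets (adjusted p = 0.0699). KRT5 and KRT14 passed at no time, with differences of 0.013 and 0.06 at 48 h, and the log2 of the summed level of the 4 basal markers was 16.94 to 16.97 in vehicle and 16.88 to 16.94 with 1,25(OH)2D at 48 h. The luminal keratins KRT8 and KRT18 passed the treatment test at no time, and the summed level of the 4 luminal markers was 14.90 to 15.01 and 14.79 to 15.19. COL1A1 was lower at 48 h by -0.60 (adjusted p = 0.0136). The summed level of the 5 fibroblast markers was 9.97 to 10.48 in vehicle and 9.51 to 9.72 with 1,25(OH)2D. All these sums add linear intensities, so the brightest markers set them. COL1A1 sets the fibroblast sum, KRT14 and KRT5 the basal one, and KRT18 and KRT8 the luminal one. The sums are thus no separate result on the other markers. The part of these markers in the results on claudins was not tested.

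The genes most like the 3 members with a called treatment effect were found by Pearson's r over the 24 arrays among 12026 tested genes. These arrays share their treatment and the first component, so r is a description. The genes were picked for likeness, over the same arrays, to a member with a called treatment effect. Their treatment differences and p-values given next are thus a description too, and no separate test. The most alike to CLDN1 were JAG1 (r = 0.975), RCAN1 (0.955) and RNF144B (0.946). JAG1, a Notch ligand, was lower with 1,25(OH)2D at 6 h (-1.04, adjusted p = 0.0441), and its differences of -0.65 at 24 h (adjusted p = 0.501) and -0.30 at 48 h (adjusted p = 0.0517) did not pass. To CLDN7 they were CTSD (0.963), IGFBP6 (0.959) and CAPNS1 (0.953). IGFBP6, a secreted binding protein of insulin-like growth factors, was higher by 2.12 at 24 h (adjusted p = 0.0149) and, at 48 h, by 2.53 (adjusted p = 1.32e-05), while 1.11 at 6 h did not pass (adjusted p = 0.0631). To CGN they were MICAL3 (0.932), AFAP1L2 (0.927) and SHE (0.924). SHE had a mean of 5.73 with 1,25(OH)2D at 6 h and means of 2.14 to 2.18 in every other group. The filter thus let SHE in through that group alone, and the part of this in its likeness to CGN was not tested. MICAL3, an actin-oxidizing enzyme, was higher at 6 h (1.87, adjusted p = 3.71e-05), and its later differences of 0.14 and 0.11 did not pass (adjusted p = 0.68 and 0.795).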

How the data were processed

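RNA of 24 RWPE1 samples was hybridised to Affymetrix U133 Plus 2.0 arrays, 1 array a sample. The authors ran gcRMA on the 24 arrays as 1 set and deposited its output, log2 intensities of 54613 probe sets and 62 controls. The gcRMA version is not given in the sources used here. The present-call filter of the methods was not applied to the deposited table. All 24 columns were used, with groups from the labels. Symbols came from the platform annotation. Of 26036 tested probe sets 21917 carry 1 symbol, 1088 several and 3031 none.

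Treated and vehicle arrays of each time (8 arrays) were compared with limma 3.58.1 (lmFit, eBayes) in R 4.3.3. Changes with time and differences of the effect between times came from 1 fit of all 24 arrays with 6 group means. P-values were adjusted by Benjamini-Hochberg over all tested probe sets. Arrays have no read depth, and 4 a group limits the precision. For genes with several probe sets the brightest tested one stands for the gene. Named were all members, up to 3 called genes per other list and treatment comparison, the markers used, the 3 genes most like each called member, and CYP24A1. Other genes named were chosen after their values were seen. The members and lists were chosen with earlier results of these data known.

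Alternatives were a filter at 6 or none, quantile normalization repeated, centring on the array median, 32 added on the linear scale before the log, eBayes with trend and robust, SAM as coded here, treatment effects from the 24-array fit, blocking by replicate number, leaving out each array, and averaging the probe sets of a gene. Fits without the 4 arrays that stand apart, and on the arrays of the 2 times compared, were added after the data were seen. Promoters came from RefSeq (GRCh38.p14), matched by symbol for all 8 genes. The fits were also run on simulated data, with noise drawn independently for each probe set and array. The first component that the real arrays share was not simulated, so this run does not cover it. Its check on false calls left out the difference of the effect between 6 and 24 h. Python 3.11.15 made the tables. Genes without a probe set of their own were not analysed here.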

Additional observations from a re-analysis of the deposited data

Results flagged for a closer look

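Some arrays lay far from the other 3 of their group, by the gap to the nearest one over the range of the group. Of 144 groups of 4 values looked at, 7 had such an array, and chance gives about 1 in 20. Among the members, CLDN4 read 3.30 on vehicle replicate 4 at 24 h (others 3.55), CGN 223233_s_at read 3.72 on vehicle replicate 4 at 48 h (others 3.22 to 3.27) and TJP3 read 4.28 on 1,25(OH)2D replicate 4 at 24 h (others 3.88 to 3.92). Among other genes, CYP24A1 read 4.06 (others 3.48 to 3.57) and PRKCI 9.0 (others 9.61 to 9.69) on vehicle replicate 1 at 6 h, ST14 read 8.09 on vehicle replicate 3 at 48 h (others 8.23 to 8.26), and GRHL1 read 4.99 on vehicle replicate 2 at 24 h (others 4.62 to 4.68). Of these arrays, the 1 with the high TJP3 value and the 1 with the high CYP24A1 and low PRKCI values are among the 4 that stand apart.

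The effect of 1,25(OH)2D differed between times, by a test of the difference itself (limma, 24 arrays). From 6 to 24 h it was lower by these log2 values for CGN 223233_s_at (-2.92), CLDN11 (-2.20), CLDN23 (-1.80), AMOTL1 (-1.36), AMOTL2 (-0.72), GRHL2 (-1.0), CYP24A1 (-3.99) and KRT15 (-1.69). From 6 to 48 h it was lower for CGN 223233_s_at (-3.18), CGN 223232_s_at (-1.67), CLDN11 (-2.45), CLDN23 (-1.73), AMOTL1 (-1.25), AMOTL2 (-0.69), CYP24A1 (-4.09) and KRT15 (-2.09). CLDN11 and CGN 223232_s_at reached the filter only with 1,25(OH)2D at 6 h, so their differences from 6 h are no test.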

How the results depend on the processing

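Of the calls on members, those of CGN 223233_s_at and CLDN1 218182_s_at at 6 h and of CLDN7 and CLDN1 218182_s_at at 48 h held under each alternative that tested them. The stricter filter left out CGN, CLDN4, CLDN12 and TJP3. The number of the 11 probe sets called moved as follows. With all 24 arrays in one fit it was 5 at 6 h and 2 at 24 h, and those at 6 h include CGN 223232_s_at, whose call there is no test. SAM called 2 at 24 h, and 3 were called there without the 4 arrays that stand apart. Centring gave 5 at 48 h. For the difference of the effect between 6 and 24 h the stricter filter gave 0. Between 6 and 48 h it gave 0, and 1 was called with no filter, with the offset, without the 4 arrays and on the arrays of the 2 times, since the call on CGN 223232_s_at was lost (in 18 of 32 alternatives). The change in vehicle from 6 to 24 h gave 1 without the 4 arrays. The change with 1,25(OH)2D from 6 to 24 h gave 4 with the stricter filter and 5 on the arrays of the 2 times. With each array left out in turn the counts were 2 to 3 at 6 h, 0 at 24 h, 3 to 4 at 48 h, 1 to 2 for both differences from 6 h, 0 for 48 h minus 24 h, 0 to 1 and 0 for vehicle, and 7 to 9 and 0 for 1,25(OH)2D. In 1132 refits of 49 single results on members 1073 kept their side of the threshold and direction, 32 lost the call, 26 gained one and 1 turned (TJP3 at 24 h, -0.0181 without 1,25(OH)2D replicate 4), and for 15 results on other genes 243 of 283 kept and 40 lost it. The 49 include results that were not called as reported, and the refits share arrays, so 1073 is no measure of how stable the calls are. Of the 32 lost calls 18 are those of CGN 223232_s_at between 6 and 48 h. CLDN1 222549_at at 48 h did not pass with all 24 arrays in one fit (adjusted p = 0.268). The cause of these moves was not tested. Of all probe sets 92 were called at 24 h as reported, 554 in one fit of 24 arrays, 1506 by SAM, 5491 without the 4 arrays and 1 with the replicate block, and at 48 h 2503, 975 in one fit, 1644 with no filter and 1349 with the block. Centring added 0.17 to the 24 h differences.

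Replicate numbers are shared between the groups. At 6 h same-numbered samples deviated together for replicates 1, 3 and 4 (r = 0.756, 0.588 and 0.670) but not for replicate 2 (-0.366), at 24 h r ran from -0.889 to 0.352 and at 48 h from -0.118 to -0.009, so the numbers were not taken as pairs. At 6, 24 and 48 h 3, 0 and 0 of 8 samples correlated best with their own number. With the replicate block 3, 0 and 3 of the 11 probe sets were called. It changed no call on a member, and among the other genes it lost those of CYP24A1 at 24 h and of ST14 and PRKCI at 48 h.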

Other observations

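Of 14 other scaffold and polarity genes 1 changed from 6 to 24 h in vehicle and 5 with 1,25(OH)2D (limma, 24 arrays). Of all genes 8.96% and 19.4% did. Among the 5 were AMOTL1 and AMOTL2, which fell. No alternatives are given for these calls, and the number of all calls with 1,25(OH)2D in this fit moved widely with single arrays. PARD6G, a partner of atypical protein kinase C, fell from 6 to 24 h in vehicle (-0.58, adjusted p = 0.0237) and with 1,25(OH)2D (-0.46, adjusted p = 0.0459). PRKCZ, an atypical protein kinase C, rose over the same time with 1,25(OH)2D (0.78, adjusted p = 0.00573), and so did TJAP1, a tight junction associated protein (0.58, adjusted p = 0.00514). CLDN23 rose in vehicle from 6 to 24 h (0.57, adjusted p = 0.0368) and fell with 1,25(OH)2D (-1.24, adjusted p = 2.17e-05).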
